A study of Mus musculus with 16 samples.

Results

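The genes described are 10 mouse mitophagy receptors, namely Bnip3, Bnip3l, Fundc1, Fkbp8, Bcl2l13, Phb2, Optn, Calcoco1, Sqstm1 and Tax1bp1, out of 25006 genes counted in each library. They were chosen by name, with their ranks in control mice and their control against MCU-KO values already known, so both sets of values are given as a description and no test of them counts as independent evidence. All 10 had enough counts to be among the 12390 genes tested between genotypes. Messenger RNA was collected with the RiboTag method, in which dopaminergic neurons express a tagged ribosomal protein and the mRNA on the tagged ribosomes is immunoprecipitated. The control mice were DAT-Cre +/- (n = 8) and the MCU-KO mice were DAT-Cre+/- MCU fl/fl (n = 8), with 1 library per mouse. Both genotypes carried Cre under the dopamine transporter gene and received the Cre-dependent RiboTag viral vector, and tissue from the substantia nigra was taken at postnatal day 45, 30 days after injection. The genotype given for control mice lists no floxed allele, so an effect of deleting Mcu cannot be told apart from that of other variants carried with the floxed allele.

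Mitophagy is the removal of mitochondria by autophagy, in which a forming membrane coated with proteins of the Atg8 family (LC3 and GABARAP) encloses a mitochondrion and delivers it to the lysosome. A receptor links both sides. Some receptors are anchored in mitochondrial membranes and bind Atg8 proteins directly. Soluble receptors such as those encoded by Optn, Sqstm1 and Tax1bp1 recognize mitochondria tagged with ubiquitin in a pathway that the kinase PINK1 starts. Loss of PINK1 causes inherited parkinsonism, a disease in which dopaminergic neurons of the substantia nigra degenerate.

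Receptors bind Atg8 proteins through a short LC3-interacting region, or LIR, whose core is an aromatic residue, a pair of variable residues and a hydrophobic residue. The cores known from the human proteins were sought in the translated mouse coding sequences and were found once in each of 7 receptors. The stretches of 36 coding bases are shown because it is through this site that receptors act, and the 12 bases that encode the core are in capitals (GENCODE M21 transcripts on GRCm38, 5′ to 3′ on the coding strand).
Bnip3: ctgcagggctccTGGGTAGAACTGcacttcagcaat
Bnip3l: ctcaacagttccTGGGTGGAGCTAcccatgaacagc
Fundc1: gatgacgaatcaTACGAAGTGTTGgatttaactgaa
Bcl2l13: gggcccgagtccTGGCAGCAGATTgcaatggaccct
Phb2: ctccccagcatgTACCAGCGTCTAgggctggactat
Optn: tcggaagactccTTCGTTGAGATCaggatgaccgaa
Sqstm1: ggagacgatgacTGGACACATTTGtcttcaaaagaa

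The core lies near the amino terminus in the first 3 of these proteins, at codons 13 to 16 of 187 in Bnip3, 35 to 38 of 218 in Bnip3l and 18 to 21 of 155 in Fundc1, each time in exon 2. In Optn it lies in exon 4 at codons 188 to 191 of 584, and in Sqstm1 in exon 7 at codons 340 to 343 of 442. Bcl2l13 holds it at codons 273 to 276 of 434 and Phb2 at codons 121 to 124 of 299. On the genome, the core of Bnip3 occupies chr7:138898812-138898823 and that of Bnip3l chr14:66999688-66999699, both on the minus strand. The cores of these closely related genes are identical at 9 of 12 bases, and their coding sequences at 76.4% of 543 aligned bases. No core was specified for Fkbp8, Calcoco1 or Tax1bp1, and none was sought in them.

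Libraries held between 18999107 and 22016362 counts on genes in control mice and between 14129527 and 20582204 in MCU-KO mice, the lowest in MCU-KO mouse 8. Mcu, the deleted gene, had 23.6 ± 14.3 CPM (counts scaled to library size, SD, n = 8) in control, from 6.2 to 43.1, and 10.4 ± 7.2 CPM (SD, n = 8) in MCU-KO, from 0.3 to 21.3. The genotypes thus overlapped in Mcu (log2 fold change −1.19, standard error 0.59, edgeR adjusted p = 1), and the counts cover the whole gene, including exons outside a deletion. The study verified the knockout by quantitative PCR of Mcu in RiboTag mRNA and by lower mitochondrial calcium uptake. Th and Slc6a3, which define dopaminergic neurons, had means of 5939 and 3265 CPM in control mice and of 5708 and 2945 CPM in MCU-KO mice. Markers of other cells were present as well: the summed level of 8 oligodendrocyte markers ranged from 2978 to 5768 CPM in control and from 3536 to 6805 in MCU-KO, and that of 8 astrocyte markers from 461.6 to 895.4 and from 539.9 to 1084. In each of these lists, 6 of 8 markers had a higher estimate in MCU-KO. So did 2 of 8 dopaminergic neuron markers, 6 of 8 microglia markers and 3 of 4 GABAergic neuron markers. Of the endothelial markers, 0 of 3 tested did. Over all genes, 6240 of 12390 were higher and 0.178% were called. In these marker lists 0 were called, and no marker was at 0 in all mice. In such immunoprecipitated tissue, fewer cells of a type and less RNA per cell cannot be told apart.

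Sqstm1 was the most abundant receptor mRNA in control mice and Bcl2l13 the least abundant, and the range between them was wide. Levels were compared between genes as CPM per kb of exon, because longer mRNAs yield more reads. Sqstm1, which encodes p62, the adaptor that links ubiquitin to Atg8 proteins, had 232.8 ± 24.2 CPM per kb (SD, n = 8), above 97.8% of the genes tested. Fkbp8, an outer-membrane immunophilin, followed with 95.1 ± 16.3 CPM per kb (SD, n = 8). Bnip3 and Bnip3l, which encode outer-membrane proteins of the BCL2 family, had 48.8 ± 8.8 and 46.0 ± 5.7 CPM per kb (SD, n = 8 each). Phb2, a prohibitin of the inner mitochondrial membrane, and Fundc1, an outer-membrane receptor, were close together at 37.5 ± 8.7 and 36.6 ± 8.9 CPM per kb (SD, n = 8 each). The ubiquitin-binding receptors Tax1bp1 and Optn had 27.0 ± 5.2 and 13.8 ± 3.6 CPM per kb (SD, n = 8 each). Calcoco1, related to the receptor NDP52, had 5.6 ± 2.7 CPM per kb (SD, n = 8), and Bcl2l13, an outer-membrane protein with BCL2 homology, had 2.5 ± 0.7 (SD, n = 8), above 32.0% of the genes tested.

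**Figure D1:**
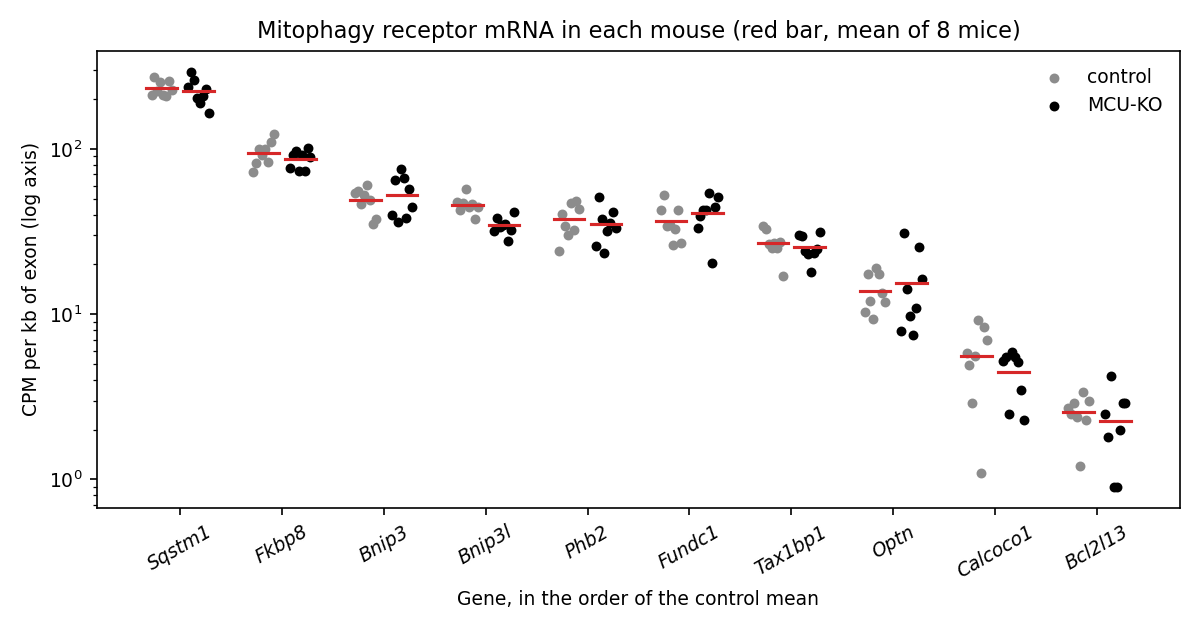
Levels of the 10 receptors as CPM per kb of exon on a log axis, with genes in the order of their control mean, 1 point per mouse (gray, control, black, MCU-KO, 8 mice each) and red bars for means. Sqstm1 lies between 209.2 and 270.6 in control mice, above each control value of any other receptor, whereas Bnip3, Bnip3l, Phb2 and Fundc1 occupy one band.

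Within this order, some neighbors were separated in every control mouse and others were not. Sqstm1 exceeded Fkbp8 in 8 of 8 control mice (log2 ratio 1.30 ± 0.27, SD, n = 8), and Fkbp8 exceeded Bnip3 in 8 of 8, by 0.96 ± 0.48. Optn exceeded Calcoco1 in 8 of 8, by 1.49 ± 1.15, and in these 3 pairs the control ranges per kb of all exons did not overlap. Tax1bp1 also exceeded Optn in 8 of 8, by 0.98 ± 0.45, but their ranges overlapped. Bnip3 exceeded Bnip3l in 4 of 8 control mice (log2 ratio 0.07 ± 0.25, SD, n = 8), and Phb2 exceeded Fundc1 in 4 of 8, with 0.035 ± 0.54. These pairs did not differ beyond their spread. Calcoco1 exceeded Bcl2l13 in 6 of 8 control mice, by 0.96 ± 1.36 on the log2 scale. Bnip3l exceeded Phb2 in 6 of 8, by 0.32 ± 0.49, and Fundc1 exceeded Tax1bp1 in 7 of 8, by 0.43 ± 0.24. The order also depends on which length is used: with the longest transcript in place of all exons, Tax1bp1 moved from place 7 to place 3, and Bnip3l from place 4 to place 6. The ratios depend on it as well. Fkbp8 has 4529 exon bases but 1799 in its longest transcript, against 3356 and 2673 for Sqstm1, so they lie closer with the latter length. Optn (3753 and 2614) and Calcoco1 (5731 and 2968) do so too. The separation of their ranges thus holds for all exons and need not hold for the longest transcript.

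The 10 receptors together had 545.7 ± 35.4 CPM per kb (SD, n = 8) in control and 520.9 ± 63.9 (SD, n = 8) in MCU-KO. Sqstm1 alone made up between 38.6% and 45.2% of that sum in control mice and between 34.4% and 48.2% in MCU-KO mice. The 6 membrane receptors (Bnip3, Bnip3l, Fundc1, Fkbp8, Bcl2l13 and Phb2) made up 48.9% ± 1.9 (SD, n = 8) of the sum in control and 48.6% ± 5.1 (SD, n = 8) in MCU-KO. The genotypes overlapped in both shares. The sum and both shares depend on the length used, here that of all exons, and were not computed with the longest transcript. Fkbp8, a membrane receptor, has 4529 exon bases but 1799 in its longest transcript.

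Receptors differed in how steady they were from mouse to mouse. In control mice, the coefficient of variation of CPM was 10.4% for Sqstm1 and 12.3% for Bnip3l, the lowest of the 10, and 48.5% for Calcoco1, the highest. Bnip3l varied less than most genes of like level. Of 1157 genes within 0.5 log2 units of its mean, 11.2% had a lower coefficient of variation. Bcl2l13 had the lowest such share of the 10 receptors, 5.9% of 2194 genes. The share was 32.6% of 190 genes for Sqstm1 and 65.9% of 2216 for Calcoco1. The highest was 70.8% of 710 genes, for Tax1bp1. Calcoco1 counts ranged from 115 to 1102 per library, and at its mean count, counting alone gives a coefficient of variation of 3.9%. In MCU-KO mice, the coefficient of variation was 55.9% for Optn and 49.1% for Bcl2l13, against 26.1% for both in control mice. These spreads were not compared by a test.

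Between genotypes, 0 of the 10 receptors passed a Benjamini-Hochberg adjusted threshold of 0.05 over all genes in the quasi-likelihood test of edgeR, where 0.178% of all 12390 genes did. The receptor with the largest difference was Bnip3l, which had a lower mean in MCU-KO mice and was called by DESeq2, but not by edgeR or limma-voom. With DESeq2, 1 of 10 receptors was called, against 0.557% of 16171 genes. At an unadjusted p under 0.05 in edgeR, 1 of 10 receptors stood out, again Bnip3l, against 4.41% of all genes. In 7 of 10 receptors the estimate was lower in MCU-KO, against 49.6% of all genes, and the median log2 fold change was −0.09 over the receptors and 0.003 over all genes. No receptor had values that did not overlap between genotypes, which 0.25% of genes had. Because the genotype contrast was in view when these genes were listed, nothing follows from these counts.

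**Figure D2:**
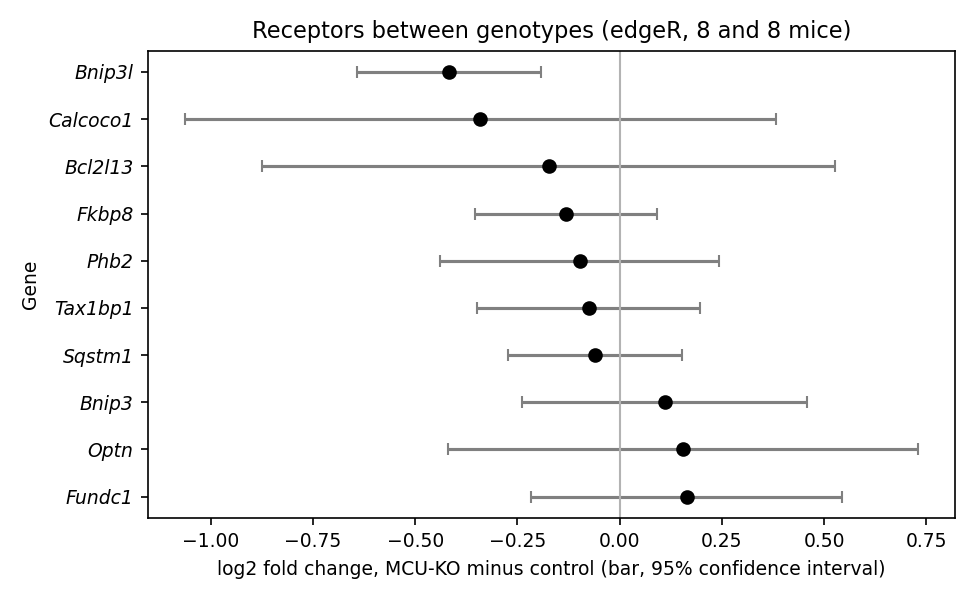
Log2 fold change (MCU-KO minus control) of each receptor with its 95% confidence interval from edgeR, for 8 and 8 mice, on the horizontal axis, and genes on the vertical axis. The interval of Bnip3l runs from −0.64 to −0.19 and the intervals of the other 9 receptors include 0.

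Bnip3l (ENSMUSG00000022051, chromosome 14, 66985239 to 67008877 of GRCm38), also known as Nix, is a mitochondrial outer-membrane receptor known for clearing mitochondria from maturing red blood cells. In control mice its lowest, median and highest values were 145.1, 175.8 and 221.9 CPM. In MCU-KO mice they were 107.1, 131.7 and 161.1 CPM. All 8 MCU-KO mice lay below the control median and 6 of 8 below every control mouse, while MCU-KO mice 2 and 8 overlapped with control mouse 7, the lowest control. The means were 177.5 ± 21.9 CPM (SD, n = 8) in control and 132.9 ± 16.3 (SD, n = 8) in MCU-KO. On the log2 scale the difference was −0.42 with a standard error of 0.11 and 95% limits of −0.64 and −0.19 (edgeR adjusted p = 0.282). DESeq2 gave the same log2 fold change with an adjusted p of 0.0274, and limma-voom gave −0.43 with an adjusted p of 0.206. MCU-KO mouse 8, the library with the fewest counts, had the highest Bnip3l value of its genotype, and without it the log2 fold change was −0.46 (adjusted p = 0.156 in edgeR). With the mean of the oligodendrocyte and astrocyte markers as a covariate it was −0.44 (adjusted p = 0.305 in edgeR).

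Bnip3 (chromosome 7, 138890836 to 138909519), whose product resembles that of Bnip3l, is known to be induced by low oxygen. Its lowest, median and highest values were 79.9, 115.0 and 137.3 CPM in control mice. In MCU-KO mice they were 81.4, 115.1 and 170.2 CPM. The medians were nearly equal, and 3 MCU-KO mice lay above every control mouse. The log2 fold change was 0.11 (95% confidence interval −0.24 to 0.46). Per kb, the log2 ratio of Bnip3l to Bnip3 ranged from −0.46 to 0.25 in control mice, and 4 of 8 had more Bnip3l. It ranged from −1.12 to −0.09 in MCU-KO mice, none of which had more Bnip3l. The zero of this ratio depends on the exon lengths used, whereas the shift between genotypes does not, and the ranges of the genotypes overlapped.

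**Figure D3:**
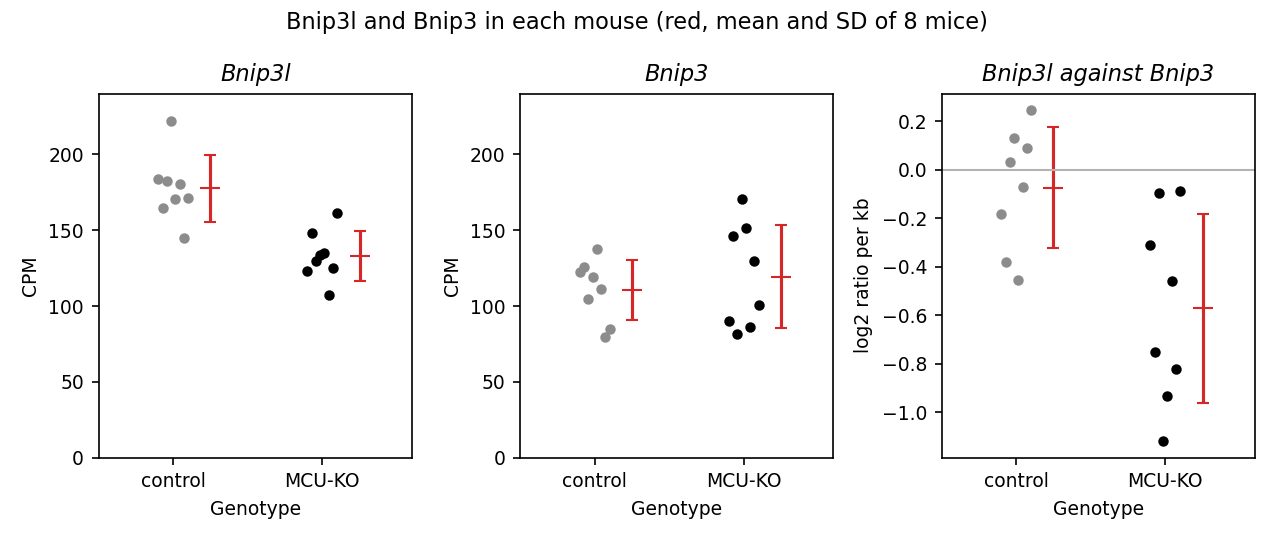
CPM of Bnip3l (left) and Bnip3 (middle) and the log2 ratio of Bnip3l to Bnip3 per kb (right) in each mouse, with genotypes on the horizontal axis and the mean and SD of 8 mice in red. Bnip3l means are 177.5 CPM in control and 132.9 in MCU-KO, Bnip3 means are 110.6 and 119.4, and each MCU-KO ratio lies below 0.

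Part of both mRNAs occurs elsewhere in the transcriptome. Of the 50-base stretches in their annotated transcripts, 20.76% in Bnip3l and 47.17% in Bnip3 also occur, on either strand, in another annotated gene. Reads within them may not be assignable to 1 gene. The pseudogene Bnip3l-ps had between 12 and 41 counts per library, at most 1.51% of the Bnip3l count in the same library. The genes that share sequence with Bnip3, AC160336.1, Gm18258 and Gm45507, have no row of their own in the counts used here. In Sqstm1, 15.53% of stretches were shared, the largest part with Mrnip, which overlaps it on the opposite strand and had at most 3.08% of its count. Overlapping neighbors on the opposite strand were more abundant for Bcl2l13, where Bid reached 370.25% of the Bcl2l13 count in a library, and for Fkbp8, where Kxd1 reached 24.19%. The share of stretches was between 0% (Fundc1) and 7.1% (Bcl2l13, with its neighbor Bid) in the other receptors. The strand setting of the counting is not given, so it is not known whether reads from genes on opposite strands were told apart. Levels of Bnip3, Bnip3l, Sqstm1, Bcl2l13 and Fkbp8, and the ratio of Bnip3l to Bnip3, are uncertain to that extent.

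The other membrane receptors showed smaller or less certain differences. Fkbp8 (chromosome 8, 70527724 to 70535328) had 326.7, 431.2 and 555.5 CPM as lowest, median and highest values in control mice and 331.9, 409.6 and 461.0 in MCU-KO mice. The genotypes overlapped over most of their ranges, and the log2 fold change was −0.13 (95% confidence interval −0.35 to 0.09). Fundc1, on the X chromosome (17556564 to 17572325), had a control range of 61.6 to 123.1 CPM and an MCU-KO range of 48.2 to 127.8 CPM. The MCU-KO range of Fundc1 enclosed that of the controls, and its log2 fold change was 0.16 (95% confidence interval −0.22 to 0.54). Phb2 (chromosome 6, 124712336 to 124716950) ranged from 90.0 to 180.0 CPM in control and from 87.8 to 189.5 in MCU-KO mice, and its log2 fold change was −0.10 (95% limits −0.44 and 0.24). With the glial markers as a covariate, the estimate for Phb2 was 0.07, so its direction was not stable. Bcl2l13 (chromosome 6, 120836212 to 120892842) had 23.1 ± 6.0 CPM (SD, n = 8) in control and 20.5 ± 10.1 (SD, n = 8) in MCU-KO. Its range in MCU-KO, 7.9 to 37.9 CPM, enclosed that of the controls, 10.6 to 30.8. Its log2 fold change of −0.17 was uncertain, with 95% limits of −0.88 and 0.53.

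Among the soluble receptors, Sqstm1 and Tax1bp1 had the narrowest intervals. Sqstm1 (chromosome 11, 50199366 to 50210827) had 702.0, 755.2 and 908.1 CPM as lowest, median and highest values in control mice. In MCU-KO mice these were 550.0, 739.0 and 985.6 CPM, so that the MCU-KO range enclosed that of the controls. Its log2 fold change was −0.06 (95% confidence interval −0.27 to 0.15). Tax1bp1 (chromosome 6, 52713729 to 52766780) had 269.6 ± 52.4 CPM (SD, n = 8) in control and 255.7 ± 44.9 in MCU-KO mice (SD, n = 8), and the log2 fold change was −0.08 (95% limits −0.35 and 0.20). Optn, the gene of optineurin (chromosome 2, 5020642 to 5064051), had 34.9 to 70.8 CPM in control and 28.3 to 116.5 in MCU-KO. The log2 fold change of Optn was 0.15 (95% confidence interval −0.42 to 0.73), and without MCU-KO mouse 2, its highest mouse, it was −0.07. With the glial markers as a covariate it was 0.31, and with limma-voom 0.004. Calcoco1 (chromosome 15, 102706777 to 102722178) had 6.1 to 53.0 CPM in control and 13.0 to 33.6 in MCU-KO. The control range of Calcoco1 enclosed that of MCU-KO, and the log2 fold change was −0.34, with 95% limits of −1.06 and 0.38. For Calcoco1, the glial covariate gave −0.13 and limma-voom −0.16.

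The order of the receptors by mean level per kb in MCU-KO mice was that of the controls, with the exception of Bnip3l, which moved from place 4 to place 6, and Fundc1, which moved from place 6 to place 4. Bnip3l had 34.4 ± 4.2 CPM per kb (SD, n = 8) in MCU-KO, next to Phb2 with 35.0 ± 8.7 (SD, n = 8). In MCU-KO mice, Bnip3l exceeded Phb2 in 4 of 8, with a log2 ratio of 0.004 ± 0.37 (SD, n = 8). Phb2 exceeded Fundc1 in 2 of 8, with a log2 ratio of −0.21 ± 0.57 (SD, n = 8). Places 4 to 6 thus did not differ beyond their spread, and the exchange of places was not tested. Bnip3 lay above Bnip3l in 8 of 8 MCU-KO mice, and the mean log2 ratio was 0.57 ± 0.39 (SD, n = 8).

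Bnip3 is a known target of the hypoxia-inducible factor HIF, which binds the letters ACGTG or GCGTG. In the 250 bases before the RefSeq starts of the receptors other than Bnip3l (9 genes with 10 starts, GRCm38.p6), ACGTG was found on either strand in 4 of 10 starts, against 16.6% of 32851 promoters. GCGTG was found in 7 of 10 starts, both starts of Tax1bp1 among them, against 28.2%. Guanine and cytosine, of which both motifs are rich, made up 72.4% of the Bnip3 stretch, against a median of 52.4% over all promoters. The stretch of the Bnip3 promoter that holds its matches is shown because none of the other 9 starts examined has as many, with the matches on either strand in capitals, and it lies from 127 to 21 bases before the start, at chr7:138909527-138909633 on the minus strand.
Bnip3: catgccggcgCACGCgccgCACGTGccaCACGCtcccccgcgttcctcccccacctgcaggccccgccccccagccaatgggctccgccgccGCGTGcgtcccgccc

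The capitals mark 5 matches, a pair of which overlap in CACGTG, the letters that 6% of promoters hold. A match of letters is a description and not a measured binding site. The level of HIF target mRNAs was measured with a list of 14 genes, of which 11 had enough counts to be tested, and 0 of these were called in either direction. Their log2 fold changes lay between −0.61 and 0.31 with a median of −0.05. The smallest p was that of Ankrd37, with 20.6 ± 5.8 CPM (SD, n = 8) in control and 13.5 ± 7.0 in MCU-KO mice (SD, n = 8, edgeR adjusted p = 1). Hif1a itself, which encodes the oxygen-sensitive subunit of the factor, had 31.8 ± 10.2 CPM (SD, n = 8) in control and 46.7 ± 24.0 in MCU-KO mice (SD, n = 8), and the log2 fold change was 0.55 (95% limits −0.06 and 1.17).

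The receptors act within a wider pathway, for which 95 further genes in 6 lists were examined. The lists hold other receptors and adaptors, regulators of receptors, the PINK1 pathway, the Atg8 family, autophagosome machinery and the 14 HIF target genes. The HIF target genes were listed for the factor that acts on Bnip3 and not as partners of the receptors. Of the 89 that were tested, 0 were called in either direction by edgeR, DESeq2 or limma-voom, and 2 had an unadjusted p under 0.05 in edgeR. Over all genes, 0.178% were called by edgeR and 0.557% by DESeq2, and 4.41% had an unadjusted p under 0.05 in edgeR, so a list of this size would hold few calls at the background rate. The estimate was higher in MCU-KO for 43 and lower for 46 of them, with a median log2 fold change of −0.008. The receptors themselves had a median of −0.09, and the difference between the lists was not tested.

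In the list of the PINK1 pathway, 0 of 18 genes were called and 1 had an unadjusted p under 0.05. Rnf185, a ubiquitin ligase, had 46.0 ± 14.1 CPM (SD, n = 8) in control and 25.3 ± 9.5 in MCU-KO mice (SD, n = 8), a log2 difference of −0.86 with a standard error of 0.29 (edgeR adjusted p = 0.771). The estimates of the remaining members fell on both sides of 0, with 8 of the 18 genes higher in MCU-KO.

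The Atg8 family, the proteins that receptors bind, was represented by Map1lc3a, Map1lc3b, Gabarap, Gabarapl1 and Gabarapl2. Naming all 5 was decided after their values were seen. Their log2 fold changes lay within a narrow band from −0.15 (Map1lc3a, the smallest p of the list) to 0.08, and 0 were called. Map1lc3a had 919.4 ± 131.0 CPM (SD, n = 8) in control and 828.6 ± 110.7 in MCU-KO mice (SD, n = 8), and the 95% limits of its log2 fold change were −0.35 and 0.05.

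Of 28 genes of the machinery that builds the autophagosome, 0 were called, with 14 estimates higher and 14 lower in MCU-KO. Atg3, the enzyme that attaches Atg8 proteins to lipid, had an unadjusted p under 0.05. It had 67.2 ± 17.3 CPM (SD, n = 8) in control and 99.8 ± 29.1 in MCU-KO mice (SD, n = 8), and the log2 fold change was 0.57 (95% limits 0.16 and 0.98, adjusted p = 0.845 in edgeR). The list of regulators of receptors, such as the kinases that phosphorylate them, had 0 of 19 called, 12 higher and 7 lower, and Hif1a had its smallest p. Among further receptors and adaptors, 0 of 8 were called, and the smallest p was that of Wdfy3, a large adaptor protein (log2 fold change 0.31, 95% limits −0.03 and 0.65). Calcoco2, a further receptor of this list, had 0 counts in each of the 16 libraries, which allows a level of up to 0.136 to 0.212 CPM, the value of 3 counts in the deepest and the shallowest library.

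**Figure D4:**
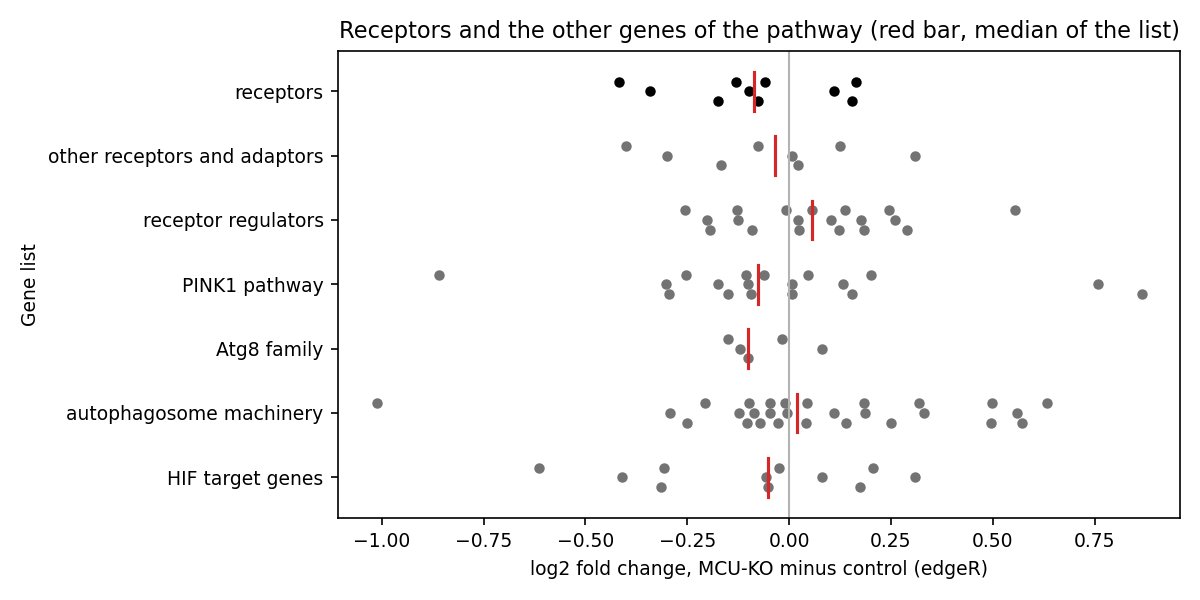
Log2 fold change (MCU-KO minus control, edgeR) of each tested gene on the horizontal axis, by list, with receptors in black and red bars for list medians. The receptors lie between −0.42 and 0.16, and the other lists spread from −1.01 to 0.87.

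Among 5464 genes with a mean log2 CPM above 5, the profile over the 16 mice that was most like that of Bnip3l was Tmem59l, a membrane protein gene, followed by Sh3bgrl3 and Krtcap2. Likeness was measured as the root mean square difference of centered log2 CPM, which was 0.17 for Tmem59l, 0.17 for Sh3bgrl3 and 0.19 for Krtcap2, against a median of 0.45 over all genes compared and a standard deviation of 0.27 for Bnip3l itself. Tmem59l had 662.6 ± 72.4 CPM (SD, n = 8) in control and 472.3 ± 35.3 in MCU-KO mice (SD, n = 8), and its lower level in MCU-KO passed the threshold (log2 fold change −0.49, standard error 0.08, adjusted p = 0.0033 in edgeR). Tmem59l lies on chromosome 8 (70483867 to 70487358), near the receptor Fkbp8 (70527724 to 70535328). Whether its difference goes with a variant carried nearby was not tested. Sh3bgrl3 and Krtcap2 had log2 fold changes of −0.25 and −0.18 and did not pass (adjusted p = 0.968 and 1 in edgeR). No receptor was among these 3 genes. Since the profiles include the difference between genotypes, genes lower in MCU-KO are favored by this measure.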

How the data were processed

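RNA-seq counts of RiboTag mRNA from 8 control and 8 MCU-KO mice were analyzed. The study counts a further MCU-KO mouse, which was not analysed here. Adapters were trimmed (cutadapt in the study's methods, Trim Galore in the submitters' processing notes), reads were aligned to mm10 with STAR and assigned to genes of an Ensembl annotation with htseq-count. The authors deposited these whole-number counts without normalization. Tool versions, the annotation release and the strand setting are not given in the sources used here. The labels name a separate mouse for each library, so p-values measure the spread among mice. Symbols, coordinates and exon lengths came from GENCODE M21 (24942 of 25006 identifiers matched).

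The genotypes were compared over all genes with edgeR 4.0.16 in R 4.3.3 (filterByExpr, TMM, glmQLFit and glmQLFTest) with Benjamini-Hochberg adjustment and a threshold of 0.05, without covariates. CPM use TMM library sizes. DESeq2 1.42.0 (the tool of the study's methods), limma-voom (3.58.1), other normalizations and filters, a glial covariate, a replicate block and leave-one-out fits were alternatives. Fits were tested on simulated data. Libraries of 1 genotype differed by far more than sampling noise in each of 56 pairs. A count has no molecular identifier, so detection limits cover counting error only.

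The receptors and lists were chosen with earlier results of these data known. Named were the receptors, Mcu, Th, Slc6a3, in each list the genes called (at most 5), else up to 3 with an unadjusted p under 0.05, else that with the smallest p, and the 3 profiles nearest to Bnip3l. Motifs and coding stretches were read with Python 3.11.15 and Biopython 1.88. Protein sequences were not used here: the planned search for the core in all proteins was replaced by a search for the core specified for each of 7 receptors in its translated GENCODE transcript. Of the listed genes, Ppptc7 was not matched to an identifier and Calcoco2, Disc1, Ca9, Egln3 and Adm had too few counts to be tested. A further gene is left out of the lists and is not reported here.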

Additional observations from a re-analysis of the deposited data

Results flagged for a closer look

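In 2 of 60 groups of 8 mice, 1 mouse lay apart from the others by Dixon's criterion at the 95% level, where chance gives about 3. MCU-KO mouse 8 had 14129527 counts in total, against 19897268 in the next lowest MCU-KO library. Sh3bgrl3 had 252.3 CPM in control mouse 2, below the next lowest control value of 295.4. None of the 20 groups formed by a receptor and a genotype was among them.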

How the results depend on the processing

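Over 8 other settings and 16 fits that left out 1 mouse, 8 of 10 receptors kept the direction of their estimate in every fit. The exceptions were Phb2, at 0.067 with the glial covariate, and Optn, which ranged from −0.072 to 0.258 when 1 mouse was left out. DESeq2 called 1 receptor (Bnip3l, log2 fold change −0.418, adjusted p = 0.0274) in place of 0, and the cause was not tested. In the other settings the adjusted p of Bnip3l lay between 0.198 and 0.661, and between 0.156 and 0.586 when 1 mouse was left out. Pathway genes called stayed at 0 in each fit. Over all genes, DESeq2 called 90 genes, limma-voom 27 and the replicate block 14, against 22.

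The order of receptor levels in control mice changed at 4 of 10 places with the longest transcript as length, at 3 without division by length and at 0 with medians over mice. It changed at between 0 and 2 places when 1 control mouse was left out, where Phb2 and Fundc1 exchanged places without control mouse 5 or 8.

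Mouse numbers occur in both genotypes. Correlations of same-numbered mice lay between −0.0612 and 0.0309, and 0 of 8 control mice correlated best with their own number. No pairing by number was seen, but this check cannot exclude a weak one. With the replicate block, 0 receptors and 0 pathway genes were called. Depth gave Calcoco1 and Bcl2l13, the receptors with the fewest counts, coefficients of variation of 3.9% and 4.6% from counting alone, against 48.5% and 26.1% measured among control mice.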
